A study of Mus musculus with 8 samples.

Results

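The transcripts described here are those of the mitochondrial genome, chosen by symbol as every gene of the expression tables whose name begins with mt-. They number 37 of 54146 genes and comprise 13 mRNAs, 2 rRNAs and 22 tRNAs. Counts were deposited for 15 of them, which are the 13 mRNAs and both rRNAs, and these 15 entered the fits. The set was proposed after mt-Nd3 had been seen among the genes whose TNF-α responses differed most between the knockdowns. For that reason the values of mt-Nd3 are given as a description, without a test, and so are the TNF-α responses of all members.

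To evaluate how GSTM1 shapes the response of astrocytes to TNF-α, the study measured RNA in primary mouse cortical astrocytes by RNA-seq. GSTM1 is a glutathione S-transferase, an enzyme that joins glutathione to reactive compounds. Astrocytes came from the cortices of C57BL/6 pups of postnatal days 2 to 5, pooled in shared flasks, carried a lentiviral shRNA vector and puromycin selection in every group, and were the CD11b-negative fraction of mixed glia. Control KD astrocytes expressed a non-silencing shRNA and GSTM1 KD astrocytes an shRNA against Gstm1, and each was left unstimulated (basal level) or stimulated with 50 ng/ml TNF-α for 6 h. Each of the 4 groups had 2 libraries, which the study calls biological replicates without naming cultures or litters. How many shRNA sequences were used per target is not given in the sources used here. Gstm1 counts were 8153 and 9644 in basal control KD libraries and 676 and 626 in basal GSTM1 KD libraries. Stimulated libraries held 4851 and 6492 with the control shRNA versus 527 and 405 with the Gstm1 shRNA.

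Total counts ranged from 17349676 to 34434633 per library. All 9 astrocyte markers exceeded 3 counts in every library, with a summed level of 2997 to 8978 CPM, counts for each 1000000 counts of the library. In replicates 1 and 2 that sum was 2997 and 6589 in basal control KD against 6082 and 8978 in basal GSTM1 KD. With TNF-α it was 3060 and 6592 against 6060 and 8641. The groups overlapped, but each GSTM1 KD sum exceeded the control KD sum of the same replicate number and state. Gfap was the largest term, at 1022 and 3026 CPM against 3222 and 5685 unstimulated. With TNF-α Gfap was at 929 and 2773 against 2962 and 5143. Slc1a2, Aldh1l1, Gja1 and Aldoc were also higher in basal GSTM1 KD than in basal control KD without overlap, while Aqp4 and Slc1a3 overlapped. Only Sox9 and S100b were lower in basal GSTM1 KD without overlap. Sox9 was at 274 and 403 against 243 and 245 unstimulated and S100b at 7.58 and 9.11 against 3.06 and 3.19. The 9 microglial markers summed to 3.23 to 9.49 CPM in basal control KD against 1.92 to 3.79 in basal GSTM1 KD. After TNF-α they were 2.26 to 9.44 against 2.37 to 4.33, with P2ry12 at or below 3 counts in all 8 libraries. The microglial sums overlapped between the knockdowns in both states. The 9 oligodendrocyte-lineage markers summed to 684 to 763 CPM in basal control KD against 542 to 570 in basal GSTM1 KD. After TNF-α the sums were 557 to 602 against 418 to 445, and the myelin genes Mog and Mag were at or below 3 counts in all 8 libraries. The 6 neuronal markers summed to 415 to 427 CPM in basal control KD against 456 to 518 in basal GSTM1 KD. After TNF-α they were 373 to 397 against 415 to 472, with Snap25 at or below 3 counts in all 8. Of the neuronal markers Map2 did not overlap between the knockdowns in either state, Stmn2 overlapped in both and Tubb3 overlapped after TNF-α. The 3 endothelial markers summed to 3.65 to 6.68 CPM in basal control KD against 1.16 to 2.57 in basal GSTM1 KD. After TNF-α they were 2.71 to 6.26 against 1.47 to 2.48. Cldn5 was at 0 in all 8, and Cdh5 made up most of this sum. The 4 fibroblast markers summed to 179 to 285 CPM in basal control KD against 173 to 247 in basal GSTM1 KD, and after TNF-α to 128 to 214 against 115 to 197. Col1a1 was at 104 and 183 CPM in stimulated control KD against 68.0 and 147 in stimulated GSTM1 KD, and Pdgfrb at 22.8 and 29.2 against 44.7 and 48.7.

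The mitochondrial genome is a small circle transcribed from both strands into long precursors, from which tRNAs are cut out and the rRNAs and mRNAs are released between them. Its mRNAs encode core subunits of the respiratory chain, and its rRNAs and tRNAs serve the mitochondrion's own ribosome. Most subunits of the chain, and every protein that copies, transcribes or processes this genome, come from nuclear genes. Astrocytes are known for strong glycolysis but hold many mitochondria.

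Stretches of the mitochondrial genome also lie in nuclear chromosomes, and the deposited table counts some of these as genes. On chromosome 1 of GRCm38, 7 annotated pseudogenes within chr1:24611535-24616197, on the minus strand, copy parts of 7 mitochondrial mRNAs. These pairs are shown first because the counts of a pair were divided between its members. mt-Nd3 (chrM:9459-9806, plus strand) and Gm28438 (chr1:24612775-24613119) are alike over 345 bases with 1 mismatch. Their first 60 bases from the GENCODE transcripts of GRCm38, read 5′ to 3′ at chrM:9459-9518 (plus strand) and chr1:24613060-24613119 (minus strand), hold that mismatch in capitals. Counted from base 1 of mt-Nd3 it is T3C.
mt-Nd3: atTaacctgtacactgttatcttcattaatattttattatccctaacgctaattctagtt
Gm28438: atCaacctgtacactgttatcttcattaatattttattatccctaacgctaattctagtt

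mt-Atp6 (chrM:7927-8607) and Gm10925 (chr1:24613974-24614651) are identical over all 678 bases of the copy. Their first 60 bases (chrM:7927-7986, plus strand, and chr1:24614592-24614651, minus strand) show that no read from inside this stretch tells them apart.
mt-Atp6: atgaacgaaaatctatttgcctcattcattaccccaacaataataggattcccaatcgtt
Gm10925: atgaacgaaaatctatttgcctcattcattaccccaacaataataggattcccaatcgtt

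Gm28437 matched mt-Co3 over 783 bases, Gm28661 matched mt-Co2 over 681 bases and Gm10222 matched mt-Nd4l over 294 bases, each without a mismatch. Gm28439 matched the first 876 of the 1378 bases of mt-Nd4 without a mismatch. Gm29216 matched the last 492 of the 1545 bases of mt-Co1 with 6 mismatches. Copies on chromosome 2 are less alike and held at most 12 counts in any library.

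The tRNAs were not measurable in these libraries. All 22 were listed at 0 in all 8 libraries with an effective length of 0, and at 59 to 75 bases each is shorter than the 100-base reads. The shortest and the longest, mt-Ts2 (tRNA for serine, chrM:11613-11671, plus strand) and mt-Tl1 (tRNA for leucine, chrM:2676-2750, plus strand), are shown whole to give their size.
mt-Ts2: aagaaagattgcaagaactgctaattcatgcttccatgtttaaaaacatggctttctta
mt-Tl1: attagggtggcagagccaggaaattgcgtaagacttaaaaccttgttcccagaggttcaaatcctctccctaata

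Of the 15 counted members, 8 had whole-number counts in all 8 libraries, taken as within 0.005 of a whole number. These were mt-Rnr1, mt-Rnr2, mt-Nd1, mt-Nd2, mt-Atp8, mt-Nd5, mt-Nd6 and mt-Cytb. The other 7 were those with a chromosome 1 copy, and their counts were fractional in some or all libraries. RSEM, the program that made the table, divides a read that matches several transcripts among them. Adding the copy made the sum whole in all 8 libraries for mt-Atp6, mt-Co3, mt-Nd3, mt-Nd4 and mt-Nd4l. For mt-Co2 the sum was whole in 4 libraries and for mt-Co1 in 3. Their chromosome 2 copies, Gm13341 and Gm13340, also held fractional counts in some libraries and were not added. In basal control KD replicate 1 these counts were 1.04 and 12.01.

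The share of a pair given to the copy differed widely between pairs and between libraries. Gm28438 held 74.6% to 93.1% of the mt-Nd3 pair, Gm10925 held 81.6% to 87.4% of the mt-Atp6 pair and Gm28437 held 61.9% to 73.0% of the mt-Co3 pair. Gm28661 held 20.7% to 46.5% of the mt-Co2 pair, and these extremes were the 2 basal GSTM1 KD libraries. For mt-Co1, mt-Nd4 and mt-Nd4l the copy's share was at most 4.17%, 6.02% and 8.36%. Whether the copies themselves are transcribed was not tested. Levels below are CPM as deposited, followed for the 7 pairs by those with the copy's counts added.

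**Figure D1:**
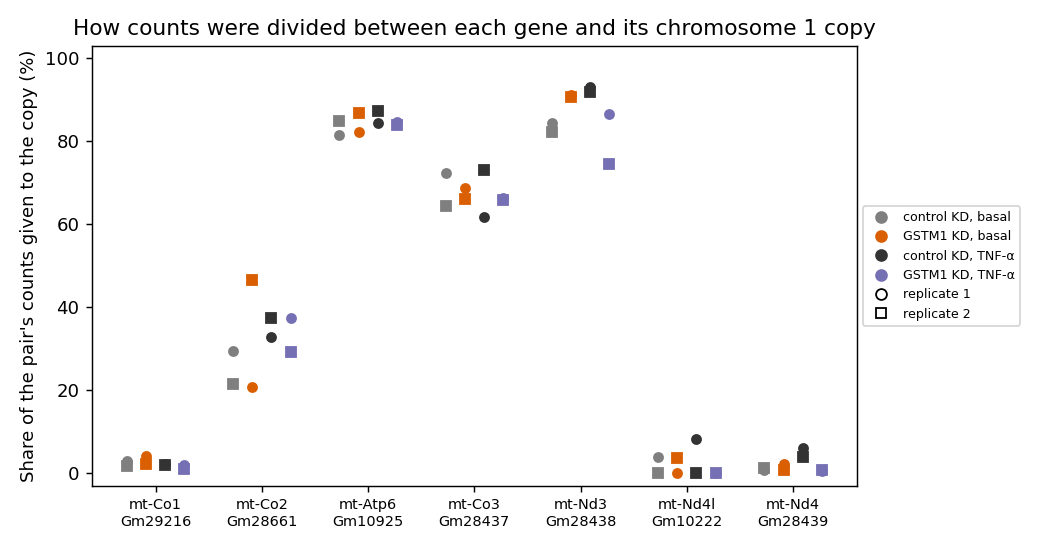
Share of each pair's expected counts that the deposited table assigns to the chromosome 1 copy (y axis, percent), by pair along the x axis, with 1 point per library coloured by group and shaped by replicate. The mt-Nd3 pair ranged from 74.6% in 1 GSTM1 KD library after TNF-α to 93.1% in 1 control KD library after TNF-α, while the mt-Co1 pair stayed at or below 4.17%.

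Mitochondrial transcripts took a larger share of the counts in GSTM1 KD libraries. The 37 genes held 1.33% and 1.51% of counts in basal control KD libraries and 1.87% and 1.88% in basal GSTM1 KD libraries. With TNF-α the shares were 1.34% and 1.21% for control KD versus 1.99% and 1.95% for GSTM1 KD. Group means were 1.42% ± 0.129 and 1.87% ± 0.00631 at the basal level (SD, n = 2), a ratio of 1.32. After TNF-α they were 1.27% ± 0.0888 and 1.97% ± 0.0305, a ratio of 1.55. No GSTM1 KD library overlapped a control KD library in either state. With the 7 copies added, the ratios were 1.3 and 1.44. In such bulk samples a change in the number of cells of a type cannot be told apart from a change in RNA per cell. The oligodendrocyte-lineage and endothelial marker sums (lower in GSTM1 KD) and the neuronal sum (higher) also did not overlap between the knockdowns in either state. The astrocyte sum overlapped but was higher in GSTM1 KD within each replicate number. The part of these markers, and of the microglial and fibroblast markers, in the mitochondrial values was not tested.

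**Figure D2:**
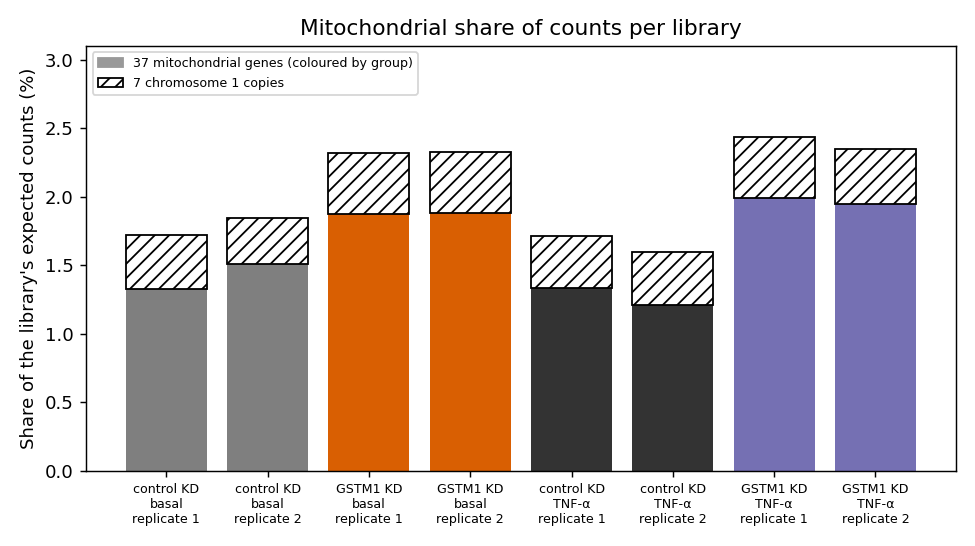
Share of each library's expected counts (y axis, percent) held by the 37 mitochondrial genes (filled bars, coloured by group) and by the 7 chromosome 1 copies (hatched), with 1 bar per library. The filled bars reach 1.21% to 1.51% in the 4 control KD libraries and 1.87% to 1.99% in the 4 GSTM1 KD libraries.

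Per length, the order of the members depended on the length used and on the copies. By deposited CPM per kilobase of annotated transcript, mt-Co1 was highest with a mean of 3315 over the 8 libraries, ahead of mt-Cytb at 1545 and mt-Co2 at 1542, whose ranges over libraries overlap. mt-Rnr1 at 205 and mt-Nd3 at 63.9 were lowest. With the copies added mt-Co1 was at 3392, followed by mt-Co3 at 3195, whose range overlaps that of mt-Co1, mt-Atp6 at 2733, mt-Co2 at 2266 and mt-Cytb at 1545. On that scale mt-Nd3 was at 484, above mt-Atp8 at 347 and mt-Rnr1 at 205. By deposited TPM, which divides by the effective length, mt-Atp8 had a mean of 6822 and mt-Co1 of 6779. mt-Atp8 was above mt-Co1 in 3 control KD libraries and below it in the other 5 libraries, and mt-Nd3 had the lowest mean at 314. mt-Atp8 ranked 13 of 15 by annotated length. Its annotated length is 204 bases and its effective length was 13.3 to 21.4 bases. The tests below use counts, and CPM from here on uses library sizes scaled by TMM, a correction for library composition.

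The knockdowns were set against each other, separately without and with TNF-α, in edgeR's quasi-likelihood test, with p-values adjusted over all genes tested and a threshold of 0.05. Positive log2 fold changes are higher in GSTM1 KD, and rose or fell below refers to GSTM1 KD against control KD of the same state. At the basal level all 14 counted members other than mt-Nd3 had a positive log2 fold change, from 0.03 to 0.67 with a median of 0.38, and 1 of them, mt-Nd1, rose past the threshold. Of all 14899 genes tested, 4.6% rose, and their median log2 fold change was -0.0020. After TNF-α the 14 members had log2 fold changes of 0.19 to 1.07 with a median of 0.61, and 9 rose, against 7.26% of 14593 genes tested with a median of -0.011. None fell in either state. The groups did not overlap, with GSTM1 KD higher, for 10 of the 14 at the basal level (32.3% of all genes) and for 13 of the 14 after TNF-α (34.7% of all genes). With the copies added, 1 member rose at the basal level (4.64% of all genes) and 9 rose after TNF-α (7.25%).

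These counts rest on both GSTM1 KD libraries. After TNF-α, leaving out either GSTM1 KD replicate left no member past the edgeR threshold, and few or no genes of the whole table. At the basal level, leaving out either GSTM1 KD replicate likewise left no member and few genes of the whole table. Without control KD replicate 2 more members passed, as did more genes of the whole table. In these fits the lone library is assumed to vary like the other group. DESeq2 called 4 members at the basal level, with 2522 genes of the whole table against 1524 by edgeR. With the replicate number as a block, edgeR called 8 members at the basal level, all higher, where 15.7% of all genes were. Of the 9 astrocyte markers, 5 rose and 2 fell with the block at the basal level, where 15.9% of all genes fell. After TNF-α 4 rose and 2 fell, against 14.1% and 15.3% of all genes. Without the block 0 rose and 1 fell in each state, where 5.62% and 8.92% of all genes fell.

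Complex I, which takes electrons from NADH, contains 7 of the 13 mitochondrial proteins. Their summed level with copies was 4428 and 5013 CPM in basal control KD libraries and 6347 and 6798 in basal GSTM1 KD libraries. Under TNF-α this was 4488 and 4496 against 6784 and 7193. The ratio of group means was 1.39 without and 1.56 with TNF-α, and the groups did not overlap.

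mt-Nd1 (chrM:2751-3707, plus strand as for every counted member except mt-Nd6) encodes a membrane subunit of complex I and was the member that rose in both states. It was at 797 and 841 CPM in basal control KD libraries and 1322 and 1281 in basal GSTM1 KD libraries. The stimulated libraries stood at 858 and 872 for control KD versus 1360.4 and 1388 for GSTM1 KD. The replicates of each group lay close together and the knockdowns were well apart. The log2 fold change was 0.67 (SE 0.12, adjusted p = 0.0329) without stimulation and 0.64 (SE 0.11, adjusted p = 0.0250) after TNF-α.

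mt-Nd2 (chrM:3914-4951), another membrane subunit, was at 670.3 and 783 CPM in basal control KD and 1053 and 1073 in basal GSTM1 KD. With TNF-α it stood at 697 and 721 against 1091 and 1200.3. The groups did not overlap in either state. With TNF-α present in both arms GSTM1 KD exceeded control KD by 0.67 on the log2 scale (SE 0.12, adjusted p = 0.0250), while the basal value of 0.55 (SE 0.14) had an adjusted p of 0.0600.

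mt-Nd4l and mt-Nd4 are read from 1 shared mRNA and overlap by 7 bases. mt-Nd4l (chrM:9877-10173) was at 121 and 147 CPM in basal control KD and 180.5 and 170.2 in basal GSTM1 KD, and after TNF-α at 127 and 109 against 188 and 208. With Gm10222 added it was at 126 and 147 against 180.5 and 177, and then at 138 and 109 against 188 and 208. mt-Nd4 (chrM:10167-11544) was at 1292 and 1515 against 1787 and 2052 at the basal level and at 1174 and 1275 against 2060.0 and 2083 after TNF-α. With Gm28439 added it was at 1301 and 1534 against 1830.3 and 2066, and then at 1249.7 and 1328 against 2074 and 2099.8. Neither gene's groups overlapped. In stimulated cells both were higher in GSTM1 KD, mt-Nd4l by 0.72 (SE 0.12, adjusted p = 0.0229) and mt-Nd4 by 0.73 (SE 0.12, adjusted p = 0.0223). With the copies added the values were 0.65 (adjusted p = 0.0412) and 0.67 (adjusted p = 0.0251). The basal values of 0.39 and 0.45 did not pass (adjusted p = 0.112 and 0.115).

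mt-Nd5 (chrM:11742-13565) and mt-Nd6 (chrM:13552-14070, minus strand) overlap by 14 bases on opposite strands, and mt-Nd6 is the only mRNA encoded on the minus strand. Whether the counting used strand is not given in the sources used here. mt-Nd5 was at 1135 and 1303 CPM in basal control KD and 1457 and 1719 in basal GSTM1 KD, and after TNF-α at 1150.2 and 1112 against 1557 and 1751. mt-Nd6 was at 255 and 256 against 306 and 317 at the basal level and at 238 and 203 against 318 and 359 after TNF-α. For both genes every GSTM1 KD library was above every control KD library of its state. In stimulated cells both were higher in GSTM1 KD, mt-Nd5 by 0.52 (SE 0.13, adjusted p = 0.0477) and mt-Nd6 by 0.59 (SE 0.13, adjusted p = 0.0402), and neither passed at the basal level (0.38 and 0.29, adjusted p = 0.157 and 0.136). mt-Nd6 made up 1.3% to 1.64% of the mRNA counts with copies in the 8 libraries.

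mt-Cytb (chrM:14145-15288), cytochrome b, is the mitochondrially encoded subunit of complex III. It was at 1437 and 1566 CPM in basal control KD and 1967 and 2076 in basal GSTM1 KD. Stimulated libraries had 1356 and 1413 against 2133 and 2187. The groups did not overlap in either state. Stimulated GSTM1 KD exceeded stimulated control KD by 0.62 (SE 0.12, adjusted p = 0.0304), and the basal value was 0.43 (SE 0.13, adjusted p = 0.0945).

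**Figure D3:**
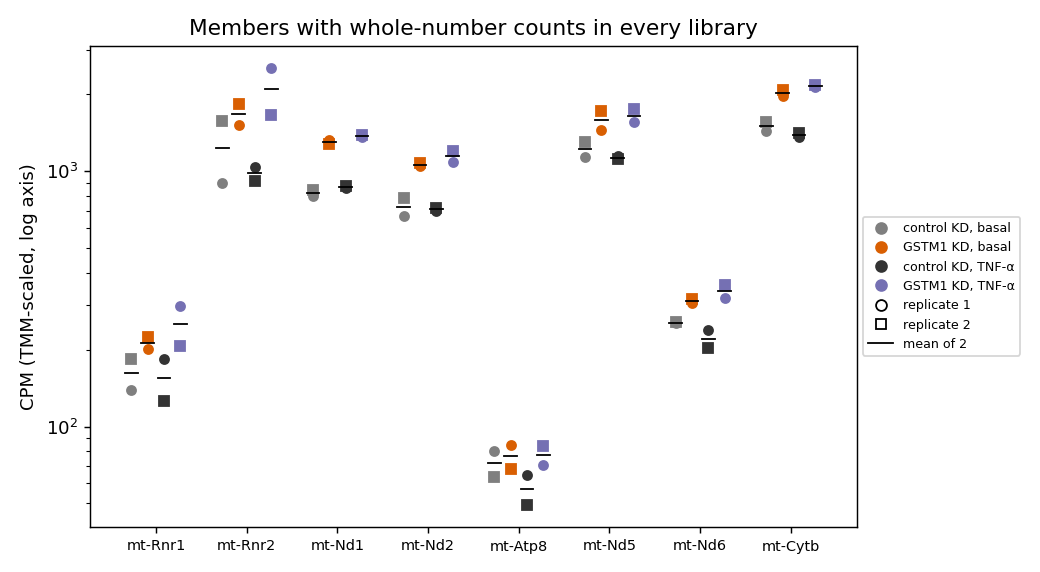
Level in CPM (y axis, log scale) of the 8 members whose counts were whole numbers in every library, with 1 point per library coloured by group and shaped by replicate, and black bars for the mean of 2. GSTM1 KD libraries lie above the control KD libraries of the same state except for mt-Rnr2 and mt-Atp8 at the basal level, where the groups overlap.

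Complex IV, cytochrome c oxidase, passes the electrons to oxygen, and its catalytic core is mt-Co1, mt-Co2 and mt-Co3. Their summed level with copies was 7964 and 8683 CPM in basal control KD and 10326 and 10176 in basal GSTM1 KD. Under TNF-α this was 8061 and 7852 against 10747 and 10547. The ratios of group means were 1.23 and 1.34.

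mt-Co1 (chrM:5328-6872) was the member with the most counts, at 4162 and 4939 CPM in basal control KD and 5596 and 5749 in basal GSTM1 KD. Under TNF-α the values were 4270.4 and 4212 against 5994 and 6049. With Gm29216 added the basal values were 4285 and 5026 against 5840 and 5875. Stimulated, they were 4371 and 4294 against 6122 and 6111. The groups did not overlap, but neither log2 fold change passed the threshold (0.32, SE 0.16, adjusted p = 0.230 and 0.48, SE 0.14, adjusted p = 0.0692). With the copy the values were 0.33 (adjusted p = 0.205) and 0.47 (adjusted p = 0.0688). It held 27.3% to 29.5% of the mRNA counts with copies in all 8 libraries.

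mt-Co2 (chrM:7013-7696), the subunit that first takes up the electrons, was as deposited at 912 and 1074 CPM in basal control KD and at 1419 and 931 in basal GSTM1 KD, so the groups overlapped. With Gm28661 added the values were 1294 and 1369 against 1789 and 1741, and they did not. After TNF-α the deposited values were 875 and 737 against 1166 and 1311, and those with the copy were 1303 and 1179 against 1861 and 1855. Stimulated GSTM1 KD was above stimulated control KD by 0.59 as deposited (SE 0.15, adjusted p = 0.0481) and by 0.56 with the copy (SE 0.13, adjusted p = 0.0413). At the basal level the values were 0.24 (SE 0.23, adjusted p = 0.50) and 0.41 (SE 0.13, adjusted p = 0.0932). Over the alternative settings the stimulated value ranged from 0.48 to 0.73.

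mt-Co3 (chrM:8607-9390) was at 656 and 815 CPM in basal control KD and 844 and 866 in basal GSTM1 KD, and after TNF-α at 910.4 and 641 against 929 and 879. The control KD libraries after TNF-α were the most spread. With Gm28437 added mt-Co3 was at 2384 and 2288 against 2697 and 2560 without stimulation, and after TNF-α at 2386 and 2378 against 2764 and 2581. No value passed, at 0.22 (SE 0.15, adjusted p = 0.362) and 0.19 (SE 0.19, adjusted p = 0.505) as deposited. With the copy they were 0.17 (SE 0.13, adjusted p = 0.420) and 0.14 (SE 0.13, adjusted p = 0.467).

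Complex V, the ATP synthase, contains mt-Atp6, part of its proton channel, and mt-Atp8. Their genes overlap by 43 bases, shown in capitals within chrM:7907-7989 (plus strand) because these bases belong to both genes. The overlap is shorter than the 100-base reads.
mt-Atp8 and mt-Atp6: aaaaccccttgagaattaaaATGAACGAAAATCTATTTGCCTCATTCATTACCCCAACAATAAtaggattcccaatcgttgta

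Their summed level with copies was 1889 and 1783 CPM in basal control KD and 2122 and 1928 in basal GSTM1 KD, and after TNF-α 1882 and 1859 against 2008 and 1981. The ratios of group means were 1.10 and 1.07, the smallest of the 4 complexes. In basal control KD the pair of mt-Atp6 and Gm10925 held 1764 of the mean of 1836 CPM. These ratios therefore mostly describe that pair. The difference between complexes was not tested.

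mt-Atp6 was at 333 and 259.7 CPM in basal control KD and 361 and 245 in basal GSTM1 KD, and after TNF-α at 285 and 228 against 299 and 304. With Gm10925 added it was at 1809 and 1719.6 against 2037 and 1860.3, and then at 1818 and 1810.0 against 1937 and 1898. With the copy the groups no longer overlapped at the basal level, yet neither state passed (0.14, SE 0.13, adjusted p = 0.498 and 0.05, SE 0.12, adjusted p = 0.772). As deposited the values were 0.03 (adjusted p = 0.938) and 0.20 (adjusted p = 0.339). mt-Atp8 (chrM:7766-7969) was at 80.0 and 63.5 against 84.8 and 67.9 at the basal level and at 64.4 and 49.3 against 70.9 and 83.6 after TNF-α. Its log2 fold changes of 0.09 (adjusted p = 0.747) and 0.41 (SE 0.16, adjusted p = 0.136) did not pass. In TPM the same gene was at 6377 and 6344 against 7613 and 7626 at the basal level, where the groups did not overlap, and at 6107 and 6156 against 7215 and 7142 after TNF-α.

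**Figure D4:**
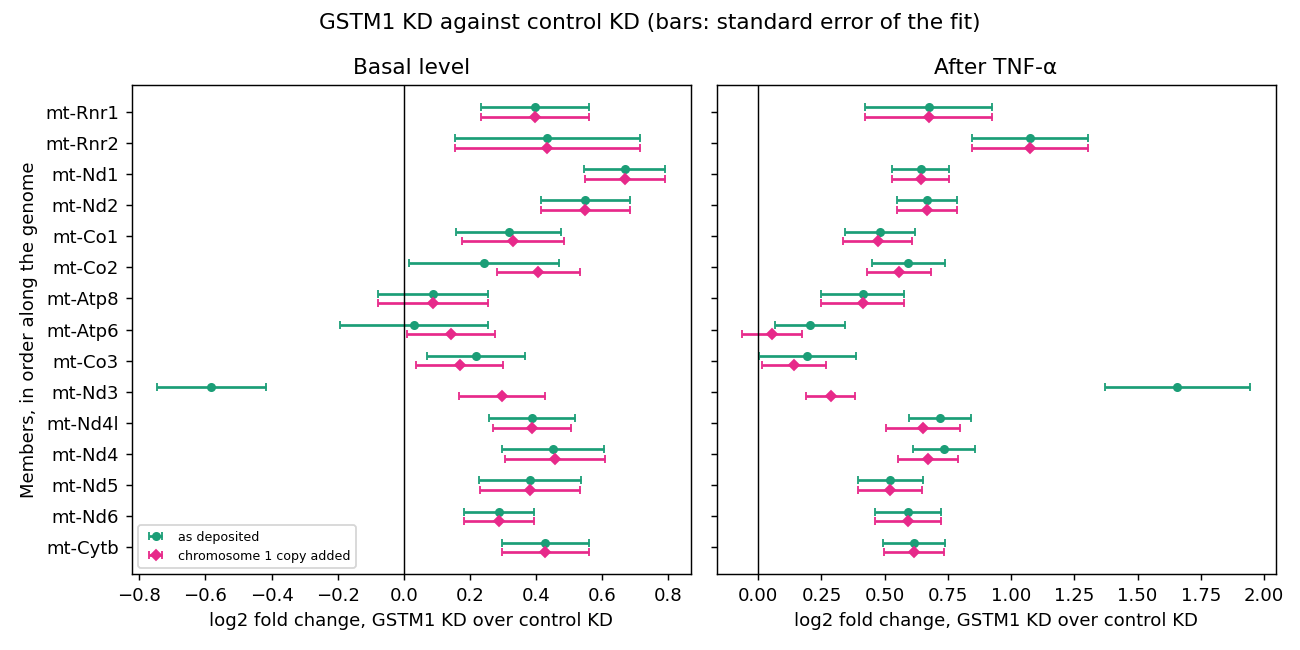
Log2 fold change of GSTM1 KD over control KD (x axis) for the 15 counted members in order along the mitochondrial genome (y axis), at the basal level (left) and after TNF-α (right), as deposited and with the chromosome 1 copy added, with bars for the standard error of the edgeR fit. mt-Nd3 stands at -0.58 and 1.66 as deposited and at 0.30 and 0.29 with its copy, while the 8 members without a copy keep their place.

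The rRNA levels differed between replicates of a group. mt-Rnr1 (chrM:70-1024), the 12S rRNA of the small ribosomal subunit, was at 139 and 184 CPM in basal control KD and 202 and 223 in basal GSTM1 KD. Under TNF-α it was at 185 and 126 against 297 and 207. Its groups did not overlap, and its log2 fold changes of 0.40 (SE 0.16, adjusted p = 0.163) and 0.67 (SE 0.25, adjusted p = 0.119) did not pass. Without control KD replicate 2 the basal value was 0.60.

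mt-Rnr2 (chrM:1094-2675), the 16S rRNA of the large subunit, was at 899 and 1578 CPM in basal control KD and 1519 and 1827 in basal GSTM1 KD. With TNF-α it stood at 1041 and 919.9 against 2544 and 1657. Among stimulated cells GSTM1 KD was higher by 1.07 (SE 0.23, adjusted p = 0.0371), the largest change of the 14 members. This value was 0.74 without GSTM1 KD replicate 1 and 1.35 without replicate 2, and neither passed (adjusted p = 0.144 and 0.0698 by edgeR). The basal groups overlapped (0.43, SE 0.28, adjusted p = 0.337), and the basal value was 0.89 without control KD replicate 2. Together the rRNAs held 6.19% to 11.6% of the mitochondrial counts with copies, and mt-Rnr2 exceeded mt-Rnr1 by a factor of 5.64 to 8.58. How rRNA was removed or poly(A) RNA selected is not given in the sources used here, so these levels are those of the prepared libraries.

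mt-Nd3, a small subunit of complex I, had the fewest counts of the 15 members. As deposited it had the widest TNF-α responses and the widest change of GSTM1 KD against control KD after TNF-α. At the basal level mt-Nd1 changed more (0.67 against -0.58). Basal control KD libraries held 786 and 688 counts and basal GSTM1 KD libraries 408 and 305. Stimulated control KD libraries held 249 and 202 and stimulated GSTM1 KD libraries 574 and 818. In CPM these were 22.2 and 26.9, 17.5 and 15.3, 10.7 and 12.2, and 26.5 and 47.0. It was thus lower after TNF-α in control KD and higher after TNF-α in GSTM1 KD, with no overlap in either. Of the 15 members 4 moved in opposite directions in the knockdowns with no overlap in either, as did 1.4% of 15332 genes, and mt-Nd3 alone did so for GSTM1 KD against control KD between the states, as did 1.14%. Since the set was chosen from these contrasts, nothing is read from either count.

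Gm28438 held several times more counts than mt-Nd3 in every library. Basal control KD libraries held 4302 and 3170 of its counts and basal GSTM1 KD libraries 4206 and 2974. Stimulated control KD libraries held 3381 and 2308 and stimulated GSTM1 KD libraries 3672 and 2407. The sum of both was 144 and 151 CPM in basal control KD and 198 and 164 in basal GSTM1 KD. Stimulated libraries summed to 156 and 151 for control KD versus 196 and 185 for GSTM1 KD. In the sum GSTM1 KD libraries were above control KD libraries in both states.

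As deposited, control KD gave mt-Nd3 a log2 TNF-α response of -1.10 (SE 0.27) and GSTM1 KD one of 1.16 (SE 0.26), and their difference was 2.26 (SE 0.37). With Gm28438 added the responses were 0.06 (SE 0.11) and 0.07 (SE 0.11), and the difference was 0.01 (SE 0.15). GSTM1 KD against control KD was -0.58 (SE 0.16) unstimulated and 1.66 (SE 0.29) after TNF-α as deposited, and 0.30 (SE 0.13) and 0.29 (SE 0.10) with the copy. No p-value is given for this gene, since it led to the choice of the set.

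**Figure D5:**
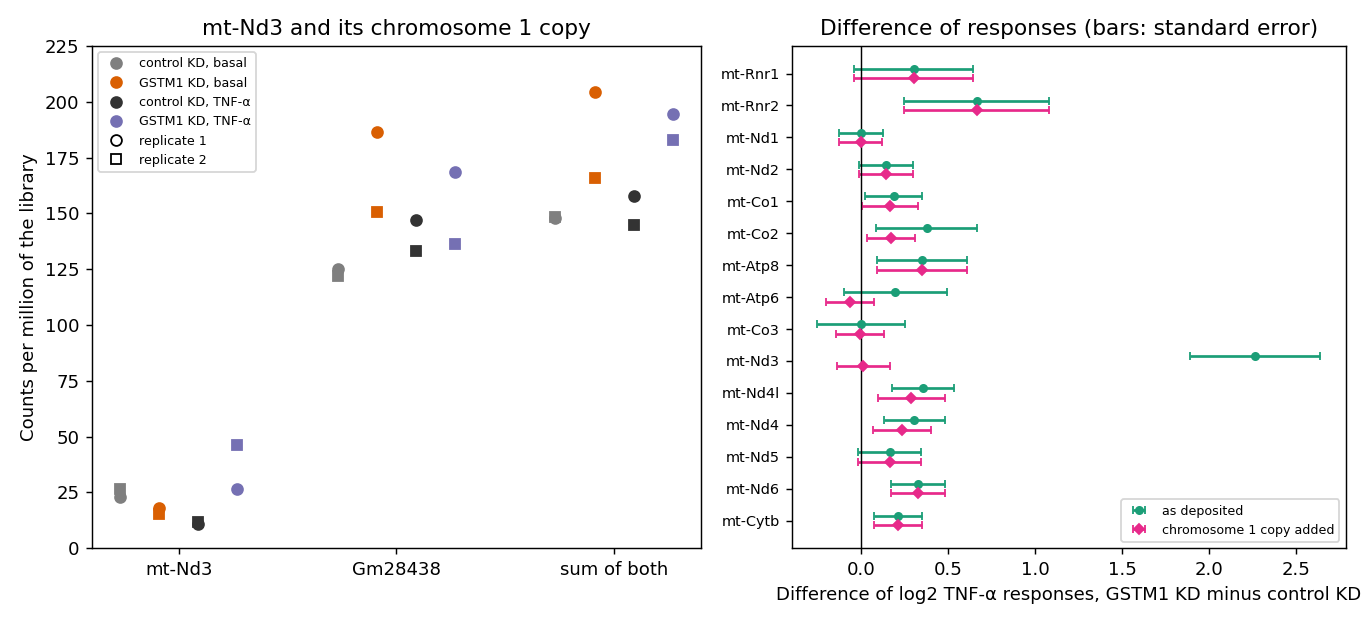
Left, CPM by each library's unscaled total (y axis) for mt-Nd3, its chromosome 1 copy Gm28438 and their sum (x axis), with 1 point per library coloured by group and shaped by replicate. Right, difference of the log2 TNF-α responses, GSTM1 KD minus control KD (x axis), for the 15 counted members (y axis) as deposited and with the copy added, with bars for the standard error. mt-Nd3 is at 2.26 as deposited and at 0.01 with its copy.

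The other members showed small TNF-α responses, given here as a description. The responses in the 2 knockdowns come from separate libraries. Each shares its basal libraries with the basal comparison of the knockdowns and its stimulated libraries with the stimulated comparison. In control KD the 14 log2 fold changes ranged from -0.34 to 0.08 with a median of -0.15, where the median of 15332 genes was -0.021. In GSTM1 KD they ranged from -0.01 to 0.33 with a median of 0.09, where that of all genes was -0.0071. For the difference of the responses the range was 0.00 to 0.66 with a median of 0.26, against 0.017 for all genes. With the copies added that range was -0.06 to 0.66 with a median of 0.19, and 11 of the 14 were positive in place of 13. mt-Atp6 then stood at -0.06 in place of 0.20, and mt-Co2 at 0.18 in place of 0.38. The largest difference among the 14 was that of mt-Rnr2, at 0.66 (SE 0.42).

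Nuclear genes that serve the mitochondrial genome were described from hand-made lists. Of 11 genes of mitochondrial transcription, 0 passed the edgeR threshold in either state, where 4.6% and 7.26% of all genes rose and 5.62% and 8.92% fell. DESeq2 also called 0 of them in either state, with 2522 and 2909 genes of the whole table. Their median log2 fold changes were -0.11 without and -0.08 with TNF-α in edgeR. Polrmt, the mitochondrial RNA polymerase, was at 30.0 ± 0.386 CPM in basal control KD and 36.0 ± 1.08 in basal GSTM1 KD (SD, n = 2), with a log2 fold change of 0.26 (SE 0.11, adjusted p = 0.181). Tfam, which packages mitochondrial DNA and bends its promoters, was at 41.1 ± 3.34 and 33.4 ± 0.478 CPM, with -0.30 (SE 0.12, adjusted p = 0.155). After TNF-α these values were 0.12 (adjusted p = 0.537) and -0.25 (adjusted p = 0.190). Tfb2m, which opens the promoter, and the elongation factor Tefm lay between -0.11 and -0.02 in both states.

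Of 20 genes of mitochondrial RNA processing and stability, 0 passed edgeR's threshold in the basal state, where 4.6% of all genes rose and 5.62% fell. Under TNF-α 2 fell, where 8.92% of all genes did. DESeq2 called 1 lower in the basal state and 3 lower under TNF-α, with 2522 and 2909 genes of the whole table. With the block 4 and 5 fell (15.9% and 15.3% of all genes). The 2 that fell in edgeR without the block were Tbrg4, an RNA-binding protein of the FASTK family (-0.59, SE 0.14, adjusted p = 0.0419), and Elac2, which cuts the 3′ end of tRNAs from precursors (-0.54, SE 0.12, adjusted p = 0.0407). Lrpprc and Slirp, partners that stabilise mitochondrial mRNAs, had log2 fold changes of 0.13 and -0.19 unstimulated and -0.02 and -0.12 stimulated, and did not pass. Pnpt1, a subunit of the RNA-degrading complex, was at -0.13 and 0.17 and did not pass either.

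Of 14 genes of mitochondrial DNA maintenance, 2 fell in the basal state (5.62% of all genes) and 4 fell under TNF-α (8.92%). Under the replicate block 1 rose and 4 fell in the basal state, where 15.7% and 15.9% of all genes did. With TNF-α 0 rose and 4 fell under the block, where 14.1% and 15.3% of all genes did. Top1mt, the mitochondrial topoisomerase, fell in both states, by 1.23 (SE 0.24, adjusted p = 0.0361) and 1.20 (SE 0.28, adjusted p = 0.0435). Lig3, a DNA ligase of nucleus and mitochondria, fell by 0.56 (SE 0.11, adjusted p = 0.0388) and 0.74 (SE 0.10, adjusted p = 0.0166). Rnaseh1, which removes RNA primers, fell in stimulated GSTM1 KD by 0.76 (SE 0.17, adjusted p = 0.0384). The last of the 4 without the block, the mitochondrial helicase Twnk, is named here only to complete the count.

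Of 10 regulators of mitochondrial gene expression, 2 rose and 1 fell in the basal state, while 1 rose and 1 fell under TNF-α. Over all genes 4.6% rose and 5.62% fell in the basal state, and 7.26% rose and 8.92% fell under TNF-α. Ppargc1a, the coactivator PGC-1α, rose in both states. It was at 37.6 ± 4.77 CPM in basal control KD and 63.4 ± 7.63 in basal GSTM1 KD, a log2 fold change of 0.75 (SE 0.15, adjusted p = 0.0361). Stimulated libraries had 26.7 ± 4.51 and 50.3 ± 4.44, a change of 0.89 (SE 0.15, adjusted p = 0.0229). Its relative Pprc1 fell by 0.79 (SE 0.14, adjusted p = 0.0293) and by 1.01 (SE 0.11, adjusted p = 0.0112). Esrra, a nuclear receptor that works with PGC-1α, rose at the basal level by 0.53 (SE 0.10, adjusted p = 0.0352), and after TNF-α its value was 0.38 (SE 0.11, adjusted p = 0.0684). Nrf1, a nuclear factor of respiratory genes, was at -0.36 in both states and did not pass (adjusted p = 0.179 and 0.136).

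The nuclear subunits of the respiratory chain and ATP synthase were set beside the mitochondrial mRNAs. Of 78 such gene IDs (77 symbols, Atp5o having a pair of IDs), which include the 4 of complex II, a complex with no mitochondrially encoded subunit, 76 were tested. Their median log2 fold change was 0.15 without and 0.17 with TNF-α. In the basal state 1 rose and 1 fell, and under TNF-α 4 rose (Uqcr10, Cox6c, Ndufs4 and Ndufa4) and 1 fell. The shares over all genes were those just given, with 7.26% higher under TNF-α. With the replicate number as a block 12 rose and 2 fell in the basal state and 16 rose and 1 fell under TNF-α, where 15.7% and 14.1% of all genes rose and 15.9% and 15.3% fell. Cox6c, Ndufs4 and Ndufa4 lie outside the rule for named genes and complete the count. The medians over the 14 mitochondrial members were 0.38 and 0.61, and the difference between the sets was not tested. Uqcr10, a small subunit of complex III, rose in both states, by 0.77 (SE 0.11, adjusted p = 0.0212) and 0.81 (SE 0.10, adjusted p = 0.0134). Cyc1, cytochrome c1 of the same complex, fell by 1.13 (SE 0.12, adjusted p = 0.0161) and 1.16 (SE 0.11, adjusted p = 0.0105), from 186 ± 8.27 to 84.6 ± 9.41 CPM at the basal level. In complex III the mitochondrial mt-Cytb and the nuclear Uqcr10 were higher in stimulated GSTM1 KD than in stimulated control KD while the nuclear Cyc1 was lower. Leaving out either GSTM1 KD replicate left 0 genes of these 5 lists past the threshold in either state, and leaving out control KD replicate 2 gave 32 and 39, where the whole table went from 1524 to 5256 and from 2360 to 5028.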

How the data were processed

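RNA of 8 astrocyte libraries was prepared with a directional kit and sequenced as 100-base paired reads. Per the labels and the study's methods, the authors aligned reads with STAR 2.5.4b to GRCm38 and estimated expression with RSEM 1.3.0. The deposited tables give the authors' expected counts, TPM (transcripts scaled by effective length), lengths and effective lengths. Expected counts were rounded and tested in edgeR 4.0.16 (R 4.3.3) with filterByExpr, TMM scaling, glmQLFit, glmQLFTest and Benjamini-Hochberg adjustment at 0.05. The knockdowns were compared on the 4 libraries of each state and the TNF-α responses were estimated on all 8, without a test. DESeq2 1.42.0 and other scalings, filters and left-out libraries were alternatives. Scripts were tested on simulated data. The members and gene lists were chosen with earlier results of these data known. All 37 members were accounted for, the mRNAs and rRNAs were named, and tRNAs were counted because none exceeded 3 counts. From the lists, up to 10 genes past the threshold without overlap, those of smallest p, and 9 set genes were named. Gene IDs matched GENCODE names for 54079 of 54146. Positions and sequences come from GENCODE for GRCm38. Replicates differed by more than counting noise (chi-square per degree of freedom 13.8 to 55.4). The p-values measure the spread between these libraries only.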

Additional observations from a re-analysis of the deposited data

Results flagged for a closer look

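In 4 of the 15 members (1.4% of all genes) basal and stimulated libraries did not overlap in either knockdown, and the responses had opposite signs. For mt-Nd3 the log2 response of control KD was -1.10 and that of GSTM1 KD 1.16, a difference of 2.264 (SE 0.37). For mt-Nd4 they were -0.20 and 0.11, a difference of 0.3065 (SE 0.17). For mt-Nd6 they were -0.21 and 0.12, a difference of 0.3301 (SE 0.15). For mt-Cytb they were -0.12 and 0.10, a difference of 0.2128 (SE 0.14). mt-Nd3 also had opposite values of GSTM1 KD against control KD, -0.58 unstimulated and 1.66 stimulated, 2.239 apart. These differences were not tested, because the set was chosen from the same comparison. With the chromosome 1 copies added, the differences were 0.01 for mt-Nd3 and 0.24 for mt-Nd4, and the control KD libraries of mt-Nd4 overlapped between the states (1301 and 1534 CPM against 1249.7 and 1328).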

How the results depend on the processing

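Over 15 settings of the fit, 205 of 210 basal log2 fold changes of the 14 members and 209 of 210 after TNF-α were positive. The negative ones came from leaving out a library. With 1 library left out, the basal values ranged from -0.092 to 0.51 for mt-Co2, from -0.080 to 0.26 for mt-Atp8 and from -0.28 to 0.28 for mt-Atp6, all lowest without GSTM1 KD replicate 1. Without basal control KD replicate 2 mt-Atp8 was at -0.076 and mt-Atp6 at -0.15. After TNF-α mt-Co3 ranged from -0.033, without control KD replicate 2, to 0.48. The basal count of 1 member, where 1524 of all genes passed, became 4 with DESeq2 (2522 genes), 2 with library size alone (1654), 5 with no filter (3957), 4 with all 8 libraries (2762) and 0 to 7 with 1 library left out (1 to 5256). After TNF-α the count of 9 (2360 genes) ran from 8 to 12 over the other settings and from 0 to 12 with 1 library left out (0 to 5028 genes), and 6 of the 8 whole-number members passed. Responses to TNF-α were not counted against a threshold, since they chose the set. With a replicate block the members past the threshold were 8 at the basal level, and genes of the pathway lists went from 7 to 26 and from 13 to 29, while all genes went from 1524 to 4712 and from 2360 to 4302. The replicate numbers share no stated origin, so this pairing is uncertain, although deviations of same-numbered libraries correlated at 0.165 to 0.575 between groups. List genes numbered 11 with DESeq2, 15 with no filter and 16 with all 8 libraries at the basal level, and 25 with no filter (4540 of all genes), 8 with effective lengths as offsets (2004) and 25 with all 8 libraries (3116) after TNF-α, with the basal gene counts as above. With 1 library left out they ranged from 0 to 32 and from 0 to 39. The ratios of the mitochondrial share ranged from 1.24 to 1.41 and from 1.47 to 1.63 with 1 library left out. Adding the copies was chosen after seeing the data, as was keeping only whole-number members. The causes of these shifts were not tested. Having 2 libraries a group limits the precision of every fold change.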
